A study of Mus musculus with 8 samples.

Results

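The 10 mouse genes described here, Pdpn, Tmem184c, Nme4, Rilpl2, Gadd45b, Dbndd2, Pdgfrl, Sct, Arhgap8 and Neto2, stood far higher in the embryo group labelled CX45 than in the 2-cell (2C) and 8-cell (8C) groups. They were picked because both CX45 libraries held at least 10 FPKM (fragments per kilobase of transcript, scaled to library size) and at least 4 times the value of every 2C and 8C library. All 10 met that rule, as did 27 of the 24732 genes in the table. The study measured total RNA of C57BL/6 mouse embryos by Smart-seq, a full-length cDNA method for scarce RNA, in 4 groups of 2 libraries: 2C, 8C, CX22 and CX45. What CX22 and CX45 stand for is not spelled out in the labels, which gave no genotype, agent, dose or age, marked no control group, and did not say how many embryos went into a library or whether the 2 libraries of a group came from separate embryos. P-values therefore measure only the spread between these libraries, which may be technical. Reading 2C and 8C as embryo stages is an interpretation of the labels.

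The 10 genes belong to no single pathway. Pdpn encodes podoplanin, a mucin-type membrane glycoprotein that binds the platelet receptor CLEC-2 and marks lymphatic endothelium and several epithelia. Sct encodes the gut peptide hormone secretin, Pdgfrl a protein related to the extracellular part of PDGF receptors, and Neto2 an auxiliary subunit of kainate-type glutamate receptors. Gadd45b belongs to a family of small stress-induced proteins that bind the kinase MEKK4 and act upstream of p38 and JNK. Nme4 encodes a nucleoside diphosphate kinase of mitochondria, Rilpl2 a relative of the Rab7 effector RILP that acts in traffic to the primary cilium, and Dbndd2 a dysbindin-domain protein that binds casein kinase 1. Tmem184c encodes a little-studied multi-pass membrane protein. The CX22 libraries took no part in the choice, so where each gene stood in CX22 is what the data add.

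Judged by the spacing of low FPKM values, depth ran from 9.72 to 20.3 M fragments per library (M, 1e6 fragments), at which 3 fragments on a 2 kb transcript came to between 0.074 and 0.154 FPKM (counting error only). The 2 libraries of 2C lay about as far apart as sampling alone gives (median chi-square over genes 1.19 times its chance value; 27.3 to 114.28 times in the other groups), so tests took them as 1 sample. CX22 replicates were the most unlike, with 331 genes over 10 FPKM in one and 0 in its partner, against 7 to 46 such genes elsewhere. Of the 14 embryo markers, Dppa3 stood between 14090 and 26937 FPKM in all 8 libraries (chosen after its values were seen). Of the pluripotency genes, Pou5f1 stood at 0 and 2.16 FPKM in CX45 (7.78 and 16.2 in 8C). Nanog stood at 6.53 and 4.54 (20.3 and 18.2 in 8C) and Sox2 at 0.442 and 0 (0 and 0.02 in 8C). Dppa4 held 615 and 717 FPKM in CX45 (596 and 722 in 8C). Dppa5a held 11262 and 5689 (11829 and 9397 in 8C), and Dppa2 266 and 458 (635 and 831 in 8C). The other embryo markers stood higher in both CX45 libraries than in both 8C libraries. Oosp1 held 62.9 and 89.0 FPKM (5.51 and 9.66 in 8C), Zscan4d 11.7 and 26.7 (0 and 0.817), and Zfp352 20.9 and 179 (1.86 and 0.916). Bmp15, Tcl1, Gdf9 and Zp3 also went this way. In 2C, Oosp1 stood at 1693 and 1700 FPKM and Zscan4d at 71.1 and 63.6. None of the 14 was called in CX45 against 8C, with a median log2 fold change of 0.87 (0.31 for all genes). Of the 5 marker lists of other cell types, those of cumulus cells, sperm, fibroblasts and endothelium summed to at most 6.10 FPKM in either CX45 library. The 12 blood and immune markers summed to 322 and 388 FPKM in CX45, 24.4 and 34.4 in 8C, 33.8 and 92.6 in CX22, and 109 in each 2C library. Hba-a1, a haemoglobin gene, made up most of that sum (286 and 347 FPKM in CX45), while the beta-globin gene Hbb-b1 was at or under 0.375 FPKM there, and Ptprc and Csf1r at or under 0.0701. Other white blood cell markers were present in CX45, Cd52 at 18.8 and 19.6 FPKM, Lyz2 at 9.61 and 7.45 and Cd68 at 5.38 and 12.7, and limma called Cd52 and Lyz2 higher than in 2C. In 8C, Cd52 stood at 10.8 and 2.45 FPKM, Lyz2 at 0 in both libraries, and Cd68 at 2.96 and 3.21. The part of these markers in the values of the 10 genes was not tested.

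Relative to the stages, CX22 split the 10 genes. In 5 of them (Tmem184c, Rilpl2, Dbndd2, Pdgfrl and Sct) both CX22 libraries lay above every 2C and 8C library. In 2 (Pdpn and Nme4) both lay below every one of them, and in 3 (Gadd45b, Arhgap8 and Neto2) CX22 overlapped the stages. Among all 11832 genes tested, both CX22 libraries lay above every stage library in 10.8% and below in 14.3%. The 10 genes had been chosen for low 2C and 8C values, which by itself makes a place above the stages easier to reach, so these counts are a description. Of the 17 other genes that met the rule, 3 lay above the stages in CX22 (Flvcr1, Gip and Pyy, chosen after their values were seen), 0 below and 14 overlapped.

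**Figure D1:**
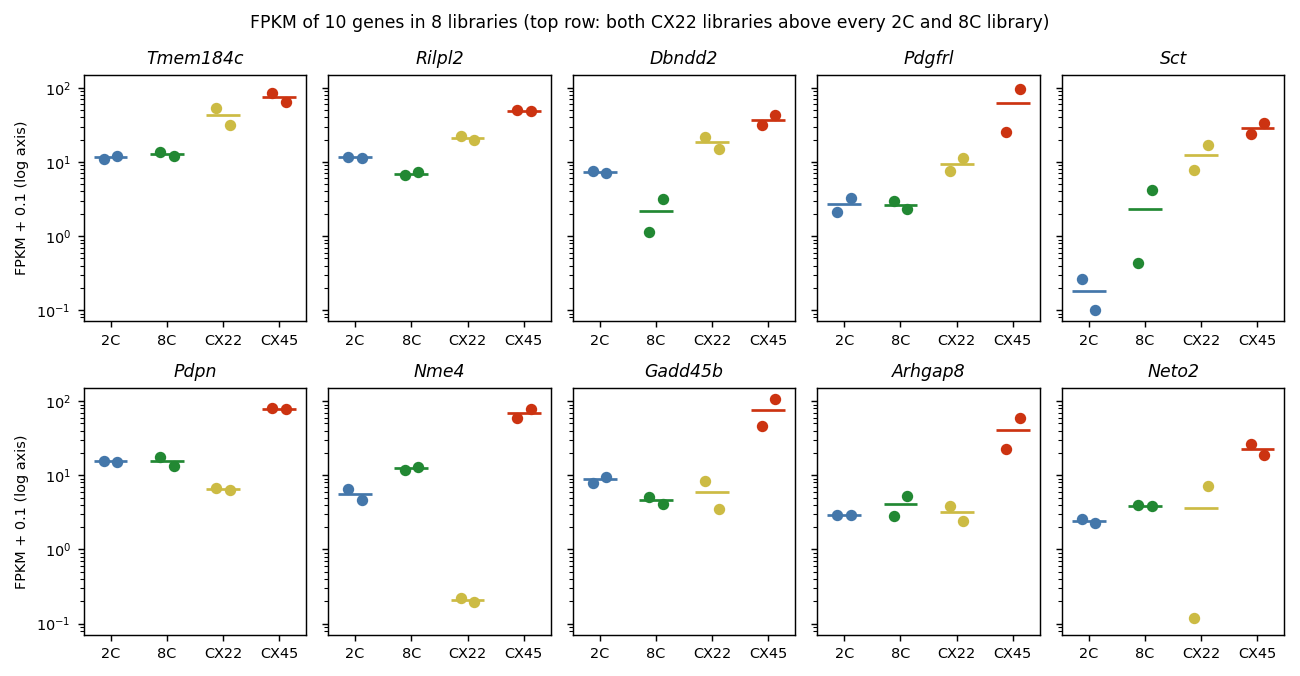
FPKM plus 0.1 on a log axis for the 10 genes in the 8 libraries; points are libraries (replicate 1 left, replicate 2 right) and lines are means of 2. In the upper row (Tmem184c, Rilpl2, Dbndd2, Pdgfrl, Sct) both CX22 points lie above all 2C and 8C points; in the lower row Pdpn and Nme4 lie below them in CX22 and the others overlap.

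Promoter sequence was looked up in RefSeq (build GRCm38.p6, not the mm9 of the expression table) for the 250 bases before each start, and 7 of the 10 genes matched. Dbndd2, Pdgfrl and Arhgap8 did not match. The 3 sequences below belong to genes above the stages in CX22. Capitals mark matches on either strand to the motifs searched: the GC box GGGCGG, the CCAAT box CCAAT, the TATA box TATAAA, the E-box CACGTG, the CRE half-site TGACG and the antioxidant element TGACNNNGC.
Tmem184c, chr8:77610715-77610964, minus strand: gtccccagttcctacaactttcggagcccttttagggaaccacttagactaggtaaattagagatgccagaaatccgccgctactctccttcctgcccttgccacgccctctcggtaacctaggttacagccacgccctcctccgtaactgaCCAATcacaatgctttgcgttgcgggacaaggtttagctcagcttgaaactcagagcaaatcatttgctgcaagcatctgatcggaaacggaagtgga
Rilpl2, chr5:124478236-124478485, minus strand: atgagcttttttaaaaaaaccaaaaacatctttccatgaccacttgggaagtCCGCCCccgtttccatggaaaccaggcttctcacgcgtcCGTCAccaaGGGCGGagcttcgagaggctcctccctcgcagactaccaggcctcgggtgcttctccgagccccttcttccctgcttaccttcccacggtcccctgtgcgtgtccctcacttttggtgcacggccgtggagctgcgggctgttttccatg
Sct, chr7:141279134-141279383, minus strand: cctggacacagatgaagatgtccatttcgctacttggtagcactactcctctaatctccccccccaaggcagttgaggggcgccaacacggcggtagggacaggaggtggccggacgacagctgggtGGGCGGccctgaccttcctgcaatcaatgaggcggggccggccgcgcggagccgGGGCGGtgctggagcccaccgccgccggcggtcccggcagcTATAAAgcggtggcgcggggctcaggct

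The next 3 belong to genes that were not above the stages in CX22, with the same marking.
Pdpn, chr4:143299565-143299814, minus strand: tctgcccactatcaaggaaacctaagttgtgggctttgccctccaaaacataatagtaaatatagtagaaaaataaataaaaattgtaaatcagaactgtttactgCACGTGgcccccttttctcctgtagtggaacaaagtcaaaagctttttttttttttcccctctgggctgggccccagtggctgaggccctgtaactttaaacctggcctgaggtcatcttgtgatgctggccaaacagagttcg
Nme4, chr17:26095471-26095720, minus strand: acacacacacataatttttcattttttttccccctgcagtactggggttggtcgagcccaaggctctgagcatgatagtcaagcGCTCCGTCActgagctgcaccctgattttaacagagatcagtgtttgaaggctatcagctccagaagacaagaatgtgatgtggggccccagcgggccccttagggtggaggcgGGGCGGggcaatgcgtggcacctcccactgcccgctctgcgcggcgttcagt
Gadd45b, chr10:80929841-80930090, plus strand: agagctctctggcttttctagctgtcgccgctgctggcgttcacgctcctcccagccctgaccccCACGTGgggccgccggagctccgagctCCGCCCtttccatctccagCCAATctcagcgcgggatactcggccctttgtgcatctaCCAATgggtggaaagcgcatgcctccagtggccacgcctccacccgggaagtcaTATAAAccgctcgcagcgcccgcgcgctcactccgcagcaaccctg

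A GC box lay in 5 of the 7 genes (Rilpl2, Sct, Nme4, Gadd45b and Neto2), against 32.7% of all 32851 windows of this length. The CCAAT box was found in 3 (Tmem184c, Gadd45b and Neto2, against 33.8%), and the TATA box in 2 (against 12.4%), 28 bases before the start in Sct and 46 in Gadd45b. An E-box lay in Pdpn and Gadd45b (against 6.02%), and a CRE half-site in Rilpl2 and Nme4 (against 17.8%), which in Nme4 overlaps the antioxidant element (against 10.2%). The full CRE TGACGTCA, the AP-1 site TGANTCA, the heat shock element GAANNTTC, the C/EBP-ATF element TGATGCAAT, the ETS site CCGGAAG and the NF-kB site were in none of the 7, against 1.55%, 6.75%, 6.69%, 0.167%, 6.91% and 0.14% of windows. Motifs were counted per gene, while the shares are per window, and Tmem184c and Neto2 had more than 1 window. Over the 9 windows of these genes the median ratio of observed to expected CpG was 0.75, against 0.37 over all windows. The reference shares and this median were not limited to genes expressed here, so they are not matched to genes chosen for high FPKM. Pdpn stood at 0.17 and a Neto2 window, the one with its CCAAT box, at 0. A match is a description of letters, not of a bound site.

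In the set that lay above the stages in CX22, Tmem184c (chromosome 8, 80119879 to 80134613 in mm9, counted from 1) had the highest mean CX45 level of the 5. Its FPKM were 10.7 and 12.1 (2C), 13.5 and 12.1 (8C), 53.2 and 31.8 (CX22), and 86.5 and 64.6 (CX45). The lower CX22 library was 2.36 times the highest stage library, and the lower CX45 library was 1.21 times the higher CX22 library. Rilpl2 (chromosome 5, 124913274 to 124928244) was the most even gene between replicates, with 11.8 and 11.1 FPKM (2C), 6.49 and 7.16 (8C), 22.2 and 19.9 (CX22), and 49.7 and 48.6 (CX45). Its CX22 and CX45 values formed 2 separate steps above the stages. Dbndd2 (chromosome 2, 164311640 to 164318823) measured 7.47 and 7.12 FPKM (2C), 1.05 and 3.07 (8C), 22 and 14.9 (CX22), and 31.9 and 42.6 (CX45). Dbndd2 was thus lowest in 8C and its CX22 libraries reached at least 2.001 times the highest stage library.

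Pdgfrl (chromosome 8, 42011587 to 42076124) measured 2.01 and 3.15 FPKM (2C), 2.85 and 2.22 (8C), 7.53 and 11.2 (CX22), and 25.2 and 97.9 (CX45). The CX45 libraries of Pdgfrl differed 3.88-fold, the widest gap between CX45 replicates among the 10 genes, and even the lower one was 2.25 times the higher CX22 library. Sct (chromosome 7, 148464228 to 148465032) was nearly absent from 2C, at 0.161 and 0 FPKM, and uneven in 8C, at 0.329 and 4.12. It held 7.8 and 16.8 FPKM in CX22 and 23.7 and 33.2 in CX45, so that the higher CX22 library came within 1.41-fold of the lower CX45 library. No ratio of FPKM to 2C is given for Sct, since its 2C values lie at about 1 fragment or at 0.

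The remaining 5 genes were not above the stages in CX22. Nme4 (chromosome 17, 26228690 to 26232415) measured 6.46 and 4.51 FPKM (2C), 11.9 and 12.7 (8C), 0.118 and 0.0957 (CX22), and 60.02 and 78.9 (CX45). The CX22 values correspond to about 1.2 fragments in each library, against 58 to 260.1 in the stages and 662.4 and 1006.8 in CX45, so Nme4 was near the counting limit in CX22 and no ratio of FPKM to CX22 is given. Pdpn (chromosome 4, 142857312 to 142889467) measured 15.6 and 15.2 FPKM (2C), 17.8 and 13.1 (8C), 6.64 and 6.2 (CX22), and 81.2 and 77.1 (CX45). Its lowest stage library was 1.97 times the higher CX22 library, and its lower CX45 library 11.6 times.

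Gadd45b (chromosome 10, 80392836 to 80394949) measured 7.89 and 9.53 FPKM (2C), 4.996 and 4.01 (8C), 8.4 and 3.46 (CX22), and 45.8 and 107 (CX45). Arhgap8 (chromosome 15, 84550482 to 84602637) measured 2.85 and 2.82 FPKM (2C), 2.76 and 5.13 (8C), 3.77 and 2.34 (CX22), and 22.4 and 59.8 (CX45). In both genes CX22 replicate 1 lay among the stages and replicate 2 below their lowest library, and CX45 replicate 2 was more than 2 times replicate 1 (2.33-fold for Gadd45b and 2.67-fold for Arhgap8). With Pdgfrl, 3 of the 10 genes had CX45 libraries 2 or more times apart, against 8.58% of all tested genes at 10 FPKM or more in both CX45 libraries. Neto2 (chromosome 8, 88160617 to 88224823) stood at 2.47 and 2.14 FPKM in 2C, 3.85 and 3.75 in 8C, and 26.3 and 18.5 in CX45. Its CX22 libraries disagreed, with 0.0181 FPKM in replicate 1 and 7.08 in replicate 2. Without CX22 replicate 1, Neto2 would join the genes above the stages and make them 6, and Gadd45b and Arhgap8 would join those below and make them 4. Without CX22 replicate 2, Neto2 would join those below and make them 3.

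The values of the stages set the scale of the rule. Among the 10 genes the ratio of the lower CX45 library to the highest stage library ran from 4.13 in Rilpl2 and 4.27 in Dbndd2, just inside the threshold of 4, to 8.01 in Pdgfrl. Just outside it were Fthl17f with a ratio of 3.88 and Fgf4 with 3.82. At a fold of 8 in place of 4, only Pdgfrl of the 10 would have been kept, and 5 genes in all.

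Limma, fitted over all genes on log2(FPKM + 1), was used for the differences that the rule did not fix, where a call needed a log2 fold change of at least 1 in either direction and, after Benjamini-Hochberg adjustment, p under 0.05. Between 8C and 2C, which the rule treats alike, limma called 0 of the 10 genes, against 37.0% of all genes tested (16.4% higher and 20.6% lower in 8C). Before adjustment, at p under 0.05, 1 was higher (Nme4) and 1 lower (Dbndd2) in 8C. Nme4 differed by 1.05 (SE 0.39, limma adjusted p = 0.0927) and Dbndd2 by -1.52 (SE 0.58, limma adjusted p = 0.0997) on the log2 scale. With the 2C libraries counted as 2 samples, both passed. The rule keeps both stages low, which limits how far apart they can lie on the log2(FPKM + 1) scale. In 6 of the 10 genes the 8C and 2C libraries did not overlap, against 89.8% of all genes.

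Between CX22 and 2C limma called 1 of the 10 genes, against 3.86% of all genes (0.609% higher and 3.25% lower). Before adjustment, 3 were higher and 2 lower at p under 0.05. The 2C libraries that enter this comparison were also used by the rule. Nme4 fell, with a log2 fold change of -2.53 (SE 0.39, limma adjusted p = 0.0436), a direction opposite to the one that choosing low 2C values favours. The size depends on the pseudocount, since Nme4 was near 0 in CX22, and was -4.73 with a pseudocount of 0.1. The call was lost without 2C replicate 1, CX22 replicate 1, or any 8C or CX45 library (limma adjusted p 0.00417 to 0.187 over all alternatives), and with a 5 FPKM filter, quantile normalization or no trend. Pdpn differed by -1.15 (SE 0.33, limma adjusted p = 0.179), and Sct (3.54), Tmem184c (1.77), Pdgfrl (1.53), Dbndd2 (1.21) and Rilpl2 (0.83) were higher on the log2 scale without passing. Without CX22 replicate 2 Tmem184c passed too, which made 2. With the 2C libraries counted as 2 samples, 4 were called: Nme4, Pdpn, Sct and Tmem184c.

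From CX22 to CX45 all 10 genes had both CX45 libraries above both CX22 libraries, which held for 41.5% of all genes. Limma called 5 of the 10 higher in CX45 (Nme4 by 5.98, Gadd45b by 3.46, Pdpn by 3.43, Arhgap8 by 3.24 and Rilpl2 by 1.18 on the log2 scale), against 23.1% of all genes called higher and 36.6% called in either direction. The 5 not called were Neto2 (3.01), Pdgfrl (2.32), Sct (1.21), Dbndd2 (0.99) and Tmem184c (0.85). The rule chose high CX45 values, so this count and these differences are a description. The median gene of the whole table was itself 0.47 higher in CX45 than in CX22 on the log2 scale (0.06 after quantile normalization, under which Rilpl2 was no longer called). Without CX45 replicate 2, the calls were Nme4 and Pdpn, 2 in all, without CX22 replicate 1 they were 7, Tmem184c and Neto2 joining, and without either 8C library they were Gadd45b, Nme4 and Pdpn, 3 in all.

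**Figure D2:**
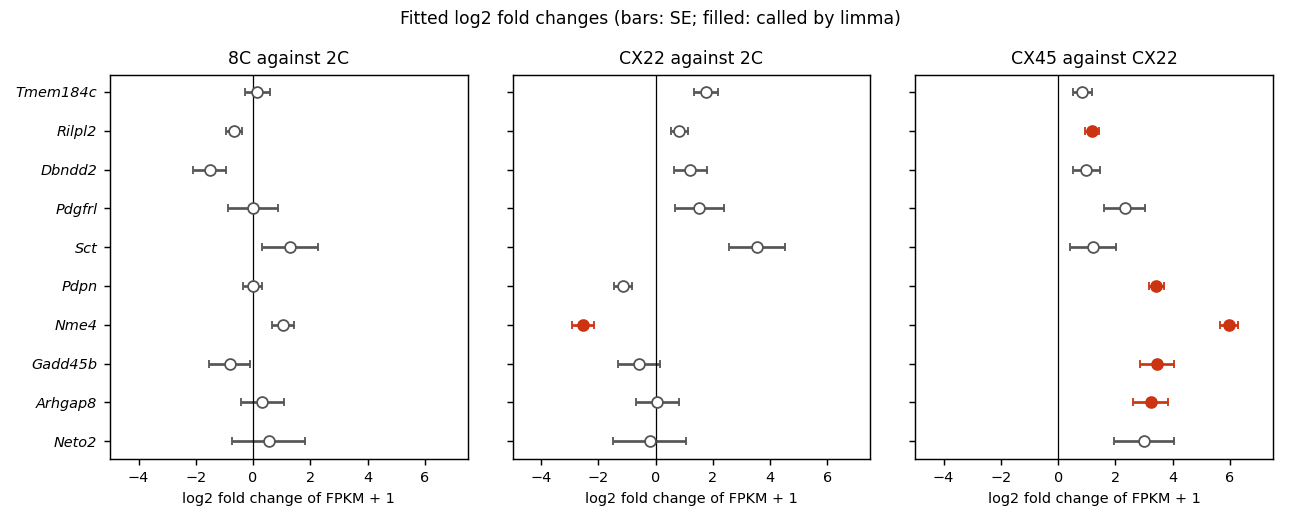
Fitted log2 fold changes of FPKM + 1 for the 10 genes in 3 comparisons, with bars of 1 SE; filled points were called by limma. In the middle panel 4 genes lie below 0 and 6 above, with Nme4 (-2.53) the only one called; in the right panel all 10 lie above 0 and 5 were called.

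In the contrasts that the rule itself used, limma called 1 of the 10 genes higher in CX45 than in 8C (Rilpl2, log2 fold change 2.68), where 0.659% of all genes were called (0.456% higher and 0.203% lower), and 9 of 10 higher than in 2C (all but Neto2), where 29.9% were called (16.3% higher). Nothing is read from these counts, since the genes were chosen on these values. They moved widely with the handling of 2C: with the 2C libraries as 2 samples, 9 of the 10 were called in CX45 against 8C. Without any single 8C, CX22 or CX45 library, 0 were. The mean CX45 level was 24.3 times the 8C mean for Pdgfrl, 18.1 for Dbndd2, 16.9 for Gadd45b, 12.8 for Sct, 10.4 for Arhgap8, and between 5.13 and 7.20 for the other 5.

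Several of the genes are listed as more than 1 RefSeq transcript, and the split between transcripts was not the same in all groups. All FPKM of Pdpn in 2C and CX22 were assigned to the transcript NM_001290822 and all in 8C and CX45 to NM_010329. The first was matched to a length of 762 bases and the second to 1817, so equal FPKM stand for unequal numbers of fragments. Counted as fragments per 1e6 library fragments without regard to length, Pdpn measured 11.9 and 11.6 (2C), 32.3 and 23.8 (8C), 5.1 and 4.7 (CX22), and 147.6 and 140.2 (CX45). On that scale the 8C libraries lay above the 2C libraries, which they did not on the FPKM scale, while CX22 remained lowest and CX45 highest. Of 2031 tested genes with more than 1 transcript and 1 FPKM or more in every library, 44.3% had the same leading transcript in all 8 libraries, and 3.74% had 1 leading transcript in 2C and CX22 and another in 8C and CX45, as Pdpn did. Transcripts of a gene share most of their sequence, so the split is an estimate of the authors' software.

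The FPKM of Neto2 in CX45 were shared between NM_001357288 (14.6 and 9.63 FPKM) and NM_001081324 (11.7 and 8.88), whereas in both stages most lay on NM_001081324. The 7.08 FPKM of CX22 replicate 2 lay wholly on NM_001357288, and NM_001081324 was listed at 0 in both CX22 libraries. Sct was spread over 3 transcripts of nearly equal length (506 to 534 bases). Tmem184c lay on NM_001364445 except for 1.28 FPKM of NM_145599 in 8C replicate 2. Arhgap8 and Dbndd2 are listed as 4 transcripts each, of which 1 carried all FPKM in every library, and Nme4, Rilpl2, Gadd45b and Pdgfrl as 1. With the largest transcript in place of the sum, 9 of the 10 genes kept the rule and Neto2 did not.

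**Figure D3:**
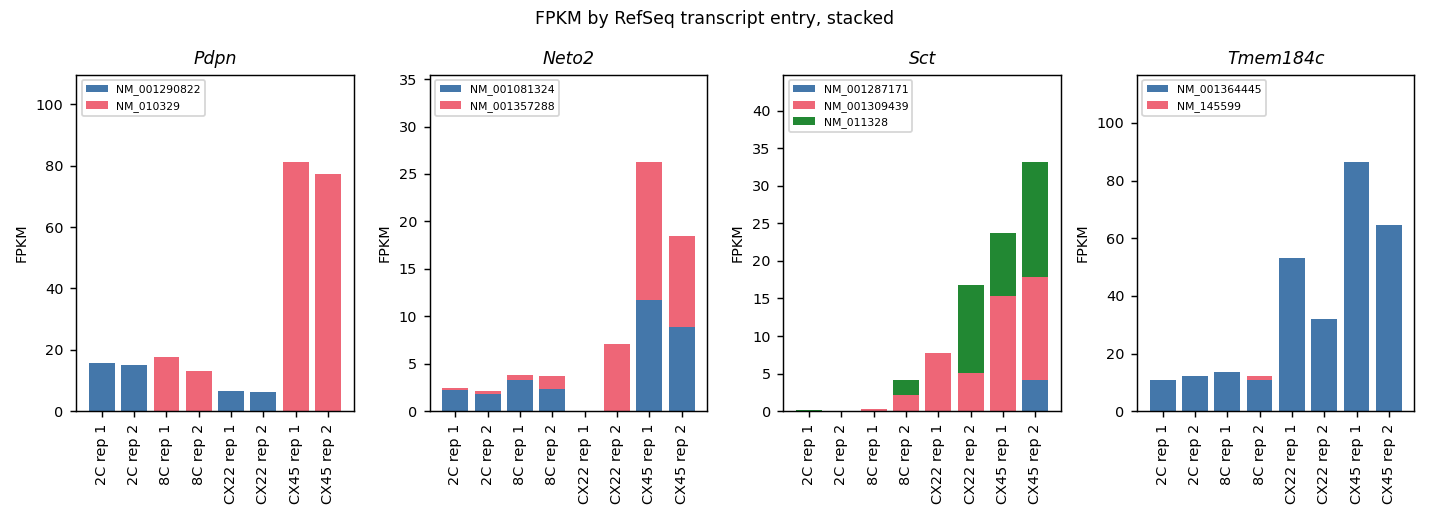
Stacked bars of FPKM by RefSeq transcript in the 8 libraries for the 4 genes with more than 1 transcript above 1 FPKM; each colour is a transcript named in the panel. Pdpn lies on one transcript in 2C and CX22 and on the other in 8C and CX45, and Neto2 in CX45 lies on both of its transcripts.

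Genes next to the 10 were tested in the same fit. Within 50 kb of them lay 21 genes that were tested, and limma called 0 of these in CX45 against 8C and 0 in CX22 against 2C, where 0.659% and 3.86% of all genes were called (before adjustment, 2 higher and 1 lower, and 0 higher and 1 lower, at p under 0.05). The median log2 fold change was 0.31 in CX45 against 8C, the same as for all genes. From CX22 to CX45, 8 neighbours were called higher and 1 lower, where 23.1% and 13.5% of all genes were, with a median of 1.36 against 0.47. In CX45 against 2C, 4 were called higher and 1 lower (16.3% and 13.6% of all genes), with a median of 0.97 against 0.34. Decr2, 1581 bases from Nme4, had the largest fold change among the neighbours in CX45 against 8C, with 4.72 and 5.79 FPKM in 8C and 20.4 and 15.1 in CX45 (log2 fold change 1.58, limma adjusted p = 0.411). Mtus1, 142 bases from Pdgfrl, was highest in 2C (126 and 127 FPKM) and stood at 9.27 and 16.9 in CX45. Its log2 fold change in CX45 against 2C was -3.23 (limma adjusted p = 0.014). Mtus1 was also low in 8C, at 9.19 and 6.46 FPKM (CX45 against 8C, log2 fold change 0.638, limma adjusted p = 0.488). Prr5, 13650 bases from Arhgap8, stayed between 0 and 3.26 FPKM in all libraries. Counting was not stated to use strand, so reads from a stretch that 2 genes share cannot be told apart. None of the 21 tested neighbours overlapped its gene by position. Gm20556 overlapped Arhgap8 and Mir8109 overlapped Neto2, and both were listed at 0 FPKM in every library.

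**Figure D4:**
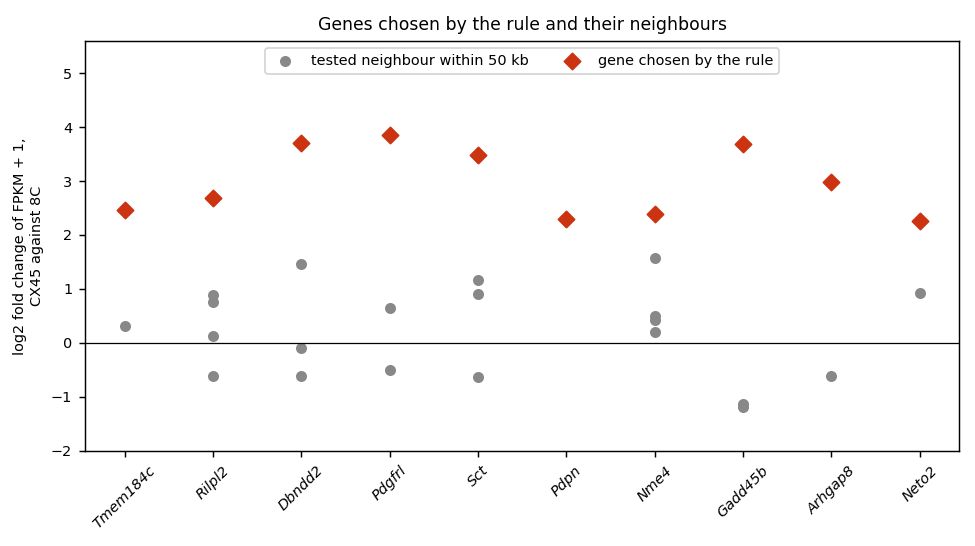
Log2 fold change of FPKM + 1 in CX45 against 8C for the 10 genes (diamonds, chosen on this contrast) and their tested neighbours within 50 kb (circles). The neighbours lie between -1.19 and 1.58, and 0 of the 21 were called; Pdpn had no tested neighbour.

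Relatives and known partners of the 10 proteins were taken from lists. Of 50 tested genes in 10 lists of paralogs and partners, limma called 0 in CX45 against 8C, where 0.659% of all genes were called (before adjustment, 1 higher and 3 lower at p under 0.05), and the median log2 fold change was 0.01, against 0.31 for all genes. In CX22 against 2C, 0 rose and 3 fell (Dbndd1, Bloc1s2 and Clec1b, the receptor of podoplanin), where 0.609% and 3.25% of all genes were called higher and lower. Before adjustment these were 3 higher and 8 lower at p under 0.05. From CX22 to CX45, 12 of the 50 were called higher and 6 lower (23.1% and 13.5% of all genes), and in CX45 against 2C, 12 and 7 (16.3% and 13.6%). Among the 11 genes of the Gadd45 list, Gadd45a measured 25.6 and 26.2 FPKM (2C), 2.1 and 0.0805 (8C), 40.4 and 5.53 (CX22), and 12.1 and 10.04 (CX45), and Gadd45g 6.05 and 51.9 in CX45, neither called in CX45 against 8C. Of the 6 tested nucleoside diphosphate kinases, Nme1 and Nme2 rose from 2C to CX45 (log2 4.29 and 3.10), and Nme1 measured 991 and 851 FPKM in 8C and 691 and 722 in CX45, a difference that was not called. Dbndd1, the paralog of Dbndd2, was near 11 FPKM in 2C (11.03 and 10.96) and at or under 0.371 in every other library. Of 13 secretin-family hormones and receptors 2 were tested, and Gip, an incretin hormone of the gut, measured 2.44 and 2.16 FPKM (2C), 2.93 and 3.11 (8C), 37.2 and 18.96 (CX22), and 16.2 and 23.2 (CX45). Like Sct, Gip stood above the stages in both CX groups, while its CX45 values overlapped those of CX22. Gip met the rule itself, so its place above the stages in CX45 was given by the choice. Ghrh, the other one tested, held 19.5 and 0 FPKM in CX22 and 0 in both CX45 libraries. None of the 7 Neto2 relatives was tested, because none reached 1 FPKM in 2 libraries.

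Stress-response lists were read the same way. Of 30 tested p53 targets 2 rose in CX45 against 8C and 0 fell, where 0.456% and 0.203% of all genes were called higher and lower. Mdm2, the ubiquitin ligase that degrades p53, rose from 9.18 and 12.2 FPKM to 123 and 88.5 (log2 3.19, limma adjusted p = 0.0463). Trp53inp1 rose from 6.78 and 3.38 to 71.8 and 78.9 (log2 3.71, limma adjusted p = 0.0463), though it also stood at 60.6 and 60.7 FPKM in 2C. Both calls were lost without any single 8C, CX22 or CX45 library, which left 0. The median log2 fold change of the 30 in CX45 against 8C was 0.76, against 0.31 for all genes. The rise was thus not limited to the 2 called genes. Targets that were higher on the log2 scale without being called included Btg2 (3.775), Eda2r (2.72) and Rrm2b (2.22). Others were lower without being called, among them Trp53i13 (-1.80) and Perp (-1.05). From CX22 to CX45, 13 of the 30 were called higher and 2 lower, where 23.1% and 13.5% of all genes were. In CX45 against 2C, 9 p53 targets were called higher and 3 lower, and 4 and 4 of the integrated stress response genes, where 16.3% and 13.6% of all genes were. Cdkn1a held 68.3 and 77.4 FPKM in 8C and 118 and 160 in CX45 (limma adjusted p = 0.232). The integrated stress response (18 tested), the immediate early and NF-kB genes (17 tested) and the trophectoderm and epithelial genes (26 tested) gave 0 calls in CX45 against 8C, with median log2 fold changes of 0.53, -0.03 and -0.07. At limma's unadjusted p under 0.05 the numbers higher and lower were 3 and 1, 3 and 0, and 1 and 4.

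Across the 8 libraries the genes most like the mean of the 10 were sought among genes at 10 FPKM or more in 2 libraries, by Pearson's r of log2(FPKM + 1) over the 8 libraries, which share their groups. The 5 closest others were Upp1 (0.981), 9430038I01Rik (0.978), Skp1 (0.976), Slc25a28 (0.975) and Hspa5 (0.973). Upp1, uridine phosphorylase, meets the rule itself, with at most 0.398 FPKM in the stages, 0 and 0.856 in CX22, and 11.9 and 13.7 in CX45. Hspa5, the chaperone of the endoplasmic reticulum, held 39 to 43.6 FPKM in the stages, 35.7 and 42.1 in CX22, and 155 and 148 in CX45. Pearson's r takes no account of the size of a change. Skp1 held 436 to 515 FPKM in the stages and 1023 and 1125 in CX45. 9430038I01Rik held 39.4 to 43.4 and then 88.7 and 91.3, and Slc25a28 7.33 to 12.9 and then 39.5 and 39.9. Of the 5, only Upp1 met the rule. Within the 10, r with their own mean ran from 0.705 (Nme4) to 0.963 (Arhgap8). The closest pairs were Rilpl2 with Dbndd2 (0.96) and Pdpn with Nme4 (0.947), and the farthest Nme4 with Dbndd2 (0.167). The rule made all 10 low in 2C and 8C and high in CX45, and their mean contains each of them. High r among them is therefore largely given by the choice, and these values are a description.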

How the data were processed

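RNA levels of mouse embryos were measured in 8 libraries. Per the submitters' processing notes, the authors used HISAT2 (listed as 4.8.2), the mm9 build and Cufflinks 2.2.1, and deposited FPKM values, 1 per RefSeq transcript and locus; settings and annotation: not given in the sources used here. Of 41876 entries, 41685 matched a RefSeq symbol and were summed per gene. Coordinates were read as starting at 0. Depth was taken as the lowest number of fragments that made low values whole (within 0.05). Transcript lengths came from GENCODE M21.

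Genes at 1 FPKM or more in 2 libraries (11832) were fitted together as log2(FPKM + 1) with limma 3.58.1 in R 4.3.3 with a mean trend, the 2C libraries averaged on that scale, so 7 samples entered, with 3 residual degrees of freedom. Calls needed a Benjamini-Hochberg adjusted p under 0.05 and a log2 fold change of 1 or more in size, two-sided. The fit was also run on simulated data in which 2C had the same spread as the other groups. The real 2C libraries lay closer together, so that run cannot decide how 2C should be handled. Named were the 10 genes, up to 2 called genes per list, tested neighbours, the 5 most alike genes, Pou5f1, Nanog, Cdkn1a and Mdm2. The members, the 20 lists and the tests were chosen with earlier results of these data known. Implied fragments carry counting error only.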

Additional observations from a re-analysis of the deposited data

How the results depend on the processing

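The replicate numbers of the labels did not pair the libraries (correlations of deviations between groups -0.001 to 0.108). With 2C as 2 samples, and likewise with the replicate block added, 2 of the 10 genes were called in 8C against 2C, 4 in CX22 against 2C and 9 in CX45 against 8C; list genes called were 18 (10 with the block) in CX45 against 8C and 17 (13) in CX22 against 2C, and neighbours 1 (1) and 1 (0). In CX22 against 2C, 0 of the 10 were called with a filter at 5 FPKM, quantile normalization or no trend, and 3, 3 and 2 list genes. In CX45 against 8C, 0 of the 10 and 0 list genes were called without a filter, with quantile normalization, the largest transcript or no trend, and 2 and 3 of the 10 with a pseudocount of 0.1 and the 5 FPKM filter. In CX45 against 2C, 5 were called without a filter.

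Leaving out 1 library gave 0 of the 10 called in 8C against 2C, 0 to 2 in CX22 against 2C, 2 to 7 in CX45 against CX22, 0 to 1 in CX45 against 8C and 4 to 9 in CX45 against 2C. It gave 3 to 15 list genes and 0 to 2 neighbours in CX22 against 2C, and 0 to 2 and 0 in CX45 against 8C. In CX22, 5 to 6 of the 10 then lay above the stages and 2 to 4 below, alternatives chosen after seeing the data. The rule kept 12 genes at 20 FPKM, 54 at a fold of 3, and 5 (1 of the 10) at a fold of 8.

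Of 510 log2 fold changes of single genes under alternatives, 461 kept direction and side of the threshold, 20 gained and 19 lost a call, and 10 changed sign, none of them called. These were Pdpn in 8C against 2C (0.11 with quantile normalization, -0.22 to 0.195 leaving out 1 library, 0.007 without 2C replicate 1), Pdgfrl (0.51 with quantile normalization, -0.237 to 0.226) and Arhgap8 (-0.026 to 0.677), and in CX22 against 2C Arhgap8 (-0.199 to 0.315) and Neto2 (-1.696 to 1.293, and 0.39 with quantile normalization). The causes were not tested. A depth of 9.72 M fragments limits what is said of Nme4 and Neto2 in CX22 replicate 1. So does the unlikeness of the CX22 replicates, with 331 genes over 10 FPKM in one and 0 in its partner. Nme4 was also at about 1.2 fragments in CX22 replicate 2, at a depth of 12.03 M.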
